A study of Caenorhabditis elegans with 18 samples.

Results

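Cuticlins and astacin proteases are 2 families that build and remodel the nematode cuticle. Every gene in the deposited tables whose symbol begins with cut-, cutl- or nas- followed by a digit was taken, which gave 72 of 46253 genes. Of these, 35 are cuticlins (cut and cutl) and 37 are astacins (nas). After a filter on low counts, 56 members were tested, 27 cuticlins and 29 astacins. The other 16, 8 of each family, had too few reads and are described by their counts.

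Cuticlins are proteins of the insoluble residue of the cuticle, the extracellular coat that a worm makes anew at each moult. Most carry a zona pellucida (ZP) domain, which lets secreted proteins assemble into sheets and ridges such as the lateral alae. Astacins are secreted or membrane-bound zinc metalloproteases that cut matrix proteins, and members of the family act in shedding of the old cuticle, in hatching and in maturation of the pharynx.

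The worms were Caenorhabditis elegans N2, the wild-type laboratory strain, harvested whole at 50 h or 58 h after synchronisation as starved first-stage larvae. They had grown on plates carrying femtogram amounts of ascr#10, a male-enriched ascaroside pheromone, or on control plates. The pheromone came from an ethanol stock diluted in water, and control plates received water alone. All worms ate OP50 bacteria at one temperature, and males and delayed or abnormal worms were picked off before harvest. There were 6 groups of 3 samples. A first collection holds water and ascr#10 worms of both ages, and a second holds water and ascr#10 worms of 58 h. The submitters call the second a batch and state that 58 h worms were gathered and sequenced anew. Ages follow the titles, descriptions and design text, because one label field reads 58 h throughout, also for the 6 younger samples. Per the extract protocol, samples were prepared independently within a condition. What that covers beyond preparation is not stated, so the spread behind each p-value may be technical in part.

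Total counts per sample were 25630681 to 32932976 in the first collection and 54285989 to 72251267 in the second. Levels are given as CPM, which are counts divided by the scaled library size in units of 1000000 counts, and comparisons between genes use the deposited TPM, transcript abundances on the same base that also correct for length. A member is said to have risen or fallen when the edgeR quasi-likelihood test gave an adjusted p under 0.05 over all 16006 genes tested. Folds are log2 values with a standard error (SE) unless called folds. The SE was worked back from the test, as the absolute log2 value over the square root of its F statistic. For large falls to few counts it can be smaller than counting error alone, so it is a rough guide there. In RNA from whole worms, fewer cells of a type and less RNA per cell cannot be told apart.

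The families were built differently at 50 h. In water, cuticlin transcripts summed to 98.5 ± 0.526 TPM (SD, n = 3), and cut-2 alone held 60.0% of that sum. cut-2 (WBGene00009983, chromosome V, 13414949 to 13416064, WBcel235) encodes a cuticlin without the ZP domain of most of the others, and stood at 59.1 ± 0.978 TPM. The next cuticlins were cut-4 at 8.53 ± 0.66 TPM, cutl-26 at 4.11 ± 0.393 TPM and cutl-20 at 3.68 ± 0.603 TPM. The last pair lay within 1 SD of each other. Of the 35 cuticlins, 14 reached a mean of 1 TPM.

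Astacin transcripts summed to 134.7 ± 2.52 TPM in the same samples, spread over more genes. nas-20 led with 28.7 ± 1.43 TPM, followed by nas-11 at 20.4 ± 0.75, nas-9 at 16.1 ± 1.06 and nas-37 at 9.49 ± 0.156 TPM. nas-7, whose product acts in the grinder of the pharynx together with that of nas-6, was next at 8.79 ± 0.793 TPM, within 1 SD of nas-37. The 4 leading astacins held 55.5% of the family's TPM, and 21 of 37 astacins reached 1 TPM.

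**Figure D1:**
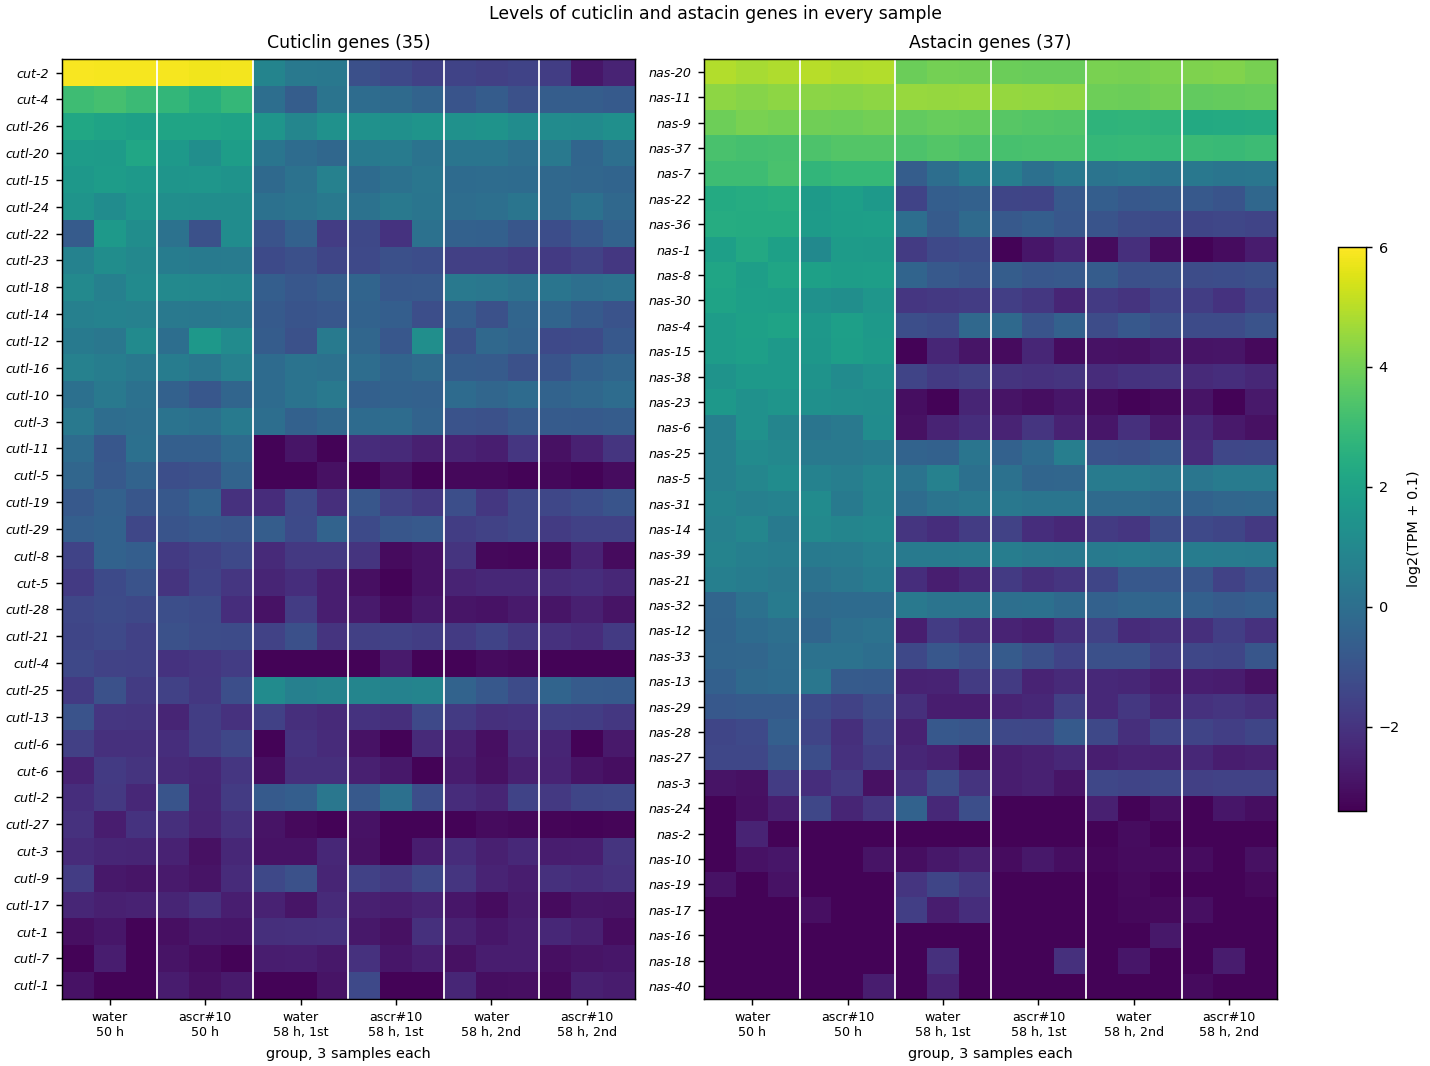
Level of each of the 35 cuticlin genes (left) and 37 astacin genes (right) in each of the 18 samples, as log2(TPM + 0.1) by colour, with columns grouped by exposure, age and collection and rows ordered by the mean in water at 50 h. The bright top row on the left at 50 h is cut-2 (59.1 TPM in water), which darkens at 58 h, while the top 4 rows on the right (nas-20, nas-11, nas-9 and nas-37) stay bright in all 6 groups.

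The step from 50 h to 58 h asks how the 2 families changed as the worms aged, and it was compared within the first collection. In water, 20 of 27 tested cuticlins fell and 3 rose, and 24 of 29 tested astacins fell and 2 rose. Among all genes tested, 42.4% fell and 37.5% rose, so 79.9% passed in either direction. In ascr#10, 21 cuticlins fell and 3 rose, and 25 astacins fell and 0 rose, where 43.9% of all genes fell and 37% rose, 80.9% in all. The same 20 cuticlins and 23 astacins fell in both exposures. The share of all genes that fell in both was not counted, so these 2 numbers have no background beside them.

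The falls were deeper than that of the median gene. The median log2 change in water was -1.60 for the cuticlins and -2.66 for the astacins, against -0.10 for all genes. In ascr#10 the medians were -1.40 and -2.56, against -0.13. Setting the genes that had no counts in one group to the bound those counts allow left these 4 family medians as they were. By the fitted values, of the cuticlins that fell in water 8 fell 4-fold or more and 4 of these 16-fold or more. Of the astacins that fell, 17 fell 4-fold or more and 4 of these 16-fold or more. How many of all genes fell that far was not counted. Among the cuticlins placed at 16-fold or more are cutl-4, cutl-5 and cutl-11, which passed the filter on low counts through their 50 h samples. The same holds for the astacins nas-15, nas-23 and nas-6, also placed there. They averaged 0.043, 0.036 and 0.0773 TPM in water at 58 h. Such members enter the family medians too. For cutl-4, with no counts at 58 h, the counts allow at least 10.7-fold only.

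cut-2 carried most of the cuticlin change. Its CPM in the 3 water samples was 54.6, 53.2 and 53.4 at 50 h and 1.42, 1.03 and 1.01 at 58 h. In ascr#10 it was 54.8, 53.7 and 54.1 at 50 h and 0.312, 0.268 and 0.226 at 58 h. The 2 ages were far apart in both exposures. The log2 change was -5.53 ± 0.096 in water (edgeR adjusted p = 1.18e-46), a 46.2-fold fall, and -7.63 ± 0.12 in ascr#10 (edgeR adjusted p = 2.06e-48). The summed cuticlin level fell from 98.5 to 17.5 ± 1.40 TPM in water, and without cut-2 it went from 39.4 ± 1.32 to 16.1 ± 1.43 TPM.

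The other cut genes were low or fell. cut-4, a ZP-domain cuticlin, was at 16.2, 17.7 and 15.3 CPM in water at 50 h and at 1.63, 0.988 and 1.91 CPM at 58 h. The samples of the 2 ages did not overlap, and the log2 change was -3.44 ± 0.14 (edgeR adjusted p = 4.25e-29). cut-5, which is needed for alae in first-stage larvae and dauers, went from 0.402 ± 0.153 to 0.112 ± 0.0373 CPM in water (SD, n = 3 each). Its log2 change of -1.81 ± 0.54 passed at an edgeR adjusted p of 0.0024. cut-1 and cut-3, which act in dauer and first-stage alae, and cut-6, which acts in the dauer cuticle, were among the untested members. Their counts per sample ran from 0 to 9 for cut-1, 0 to 15 for cut-3 and 0 to 12 for cut-6.

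Several cutl genes of low level all but disappeared in water of the first collection. cutl-4 had 36 counts over the 3 water samples at 50 h and 0 at 58 h. Taking 3 counts over the group as the floor, it was at least 10.7-fold lower at 58 h. cutl-5 went from 83 counts to 1, a ratio of 73.9 with an exact 95% interval of 12.9 to 2954, and cutl-11 from 74 counts to 1, a ratio of 65.9 with an interval of 11.5 to 2638. These intervals cover counting error alone. In water of the first collection cutl-11 averaged 0.746 TPM at 50 h and 0.0119 TPM at 58 h. In the other 58 h groups it was less low. It averaged 0.0963 TPM in ascr#10 of the first collection, and 0.104 and 0.0857 TPM in water and ascr#10 of the second. Its log2 change with age in ascr#10 was -2.86. cutl-23, at a higher level, went from 4.41, 5.68 and 5.05 CPM to 0.816, 0.95 and 0.701 CPM in water, a log2 change of -2.62 ± 0.19 (edgeR adjusted p = 9.90e-19).

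The cuticlins that rose with age in both exposures were cutl-25, cutl-2 and cutl-9. cutl-25 (WBGene00021919, chromosome III, 3042593 to 3047140) stood at 0.211, 0.435 and 0.221 CPM in water at 50 h. At 58 h it was at 2.23, 1.63 and 1.79 CPM, above every younger sample. Its log2 change was 2.65 ± 0.31 in water (edgeR adjusted p = 4.48e-11) and 2.57 ± 0.31 in ascr#10 (edgeR adjusted p = 1.13e-10). In the second collection its 58 h water samples were at 0.848, 0.61 and 0.413 CPM. They lay below all 3 of the first collection, a log2 difference of -1.59 (edgeR adjusted p = 4.62e-08). Between the water samples of the 2 collections 30.8% of all genes were higher and 27.3% lower in the second, 58.1% in all.

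cutl-2 rose by 2.32 ± 0.51 on the log2 scale in water and by 1.22 ± 0.47 in ascr#10 (edgeR adjusted p = 6.37e-05 and 0.0164). In ascr#10 its samples of the 2 ages overlapped. cutl-9 rose by 1.35 ± 0.54 and 1.66 ± 0.57 (edgeR adjusted p = 0.0197 and 0.00729), and in water its samples overlapped. Without single samples the calls of cutl-9 in water and of cutl-2 in ascr#10 were lost, at adjusted p up to 0.157 and 0.201. In water, cutl-2 averaged 0.133 TPM at 50 h, 0.738 TPM at 58 h in the first collection and 0.152 TPM at 58 h in the second. For cutl-9 these means were 0.0934, 0.247 and 0.0994 TPM. In water of the second collection both genes thus stood near their 50 h level.

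Astacins with a known part in moulting moved apart from one another with age. nas-36 and nas-37 encode proteases needed to shed the old cuticle, and nas-38 acts in the quiescent phase of the moult. nas-36 (WBGene00003552, chromosome I, 7527224 to 7531715) was at 13.4, 12.8 and 13 CPM in water at 50 h and at 2.16, 1.22 and 1.91 CPM at 58 h. The ages were well separated, with a log2 change of -2.88 ± 0.13 (edgeR adjusted p = 6.20e-27). nas-38 fell by more, from 6.63, 7.94 and 7.81 CPM to 0.638, 0.456 and 0.546 CPM (log2 -3.76 ± 0.18, edgeR adjusted p = 2.20e-25).

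nas-37 (WBGene00003553, chromosome X, 9944844 to 9949063) was abundant in water at both ages, at 24.9, 24.2 and 24.8 CPM at 50 h and 25.4, 26.9 and 24.8 CPM at 58 h. The samples of the 2 ages overlapped, and the log2 difference was 0.06 ± 0.053 (edgeR adjusted p = 0.269). In ascr#10 it went from 27.5, 30.6 and 30.4 CPM to 23.5, 24.4 and 24.4 CPM. There it fell, by 0.29 ± 0.052 on the log2 scale (edgeR adjusted p = 1.30e-06). nas-39, a relative of the bone morphogenetic protein 1 and tolloid proteases, changed little. It was at 5.49 ± 0.462 CPM at 50 h and 4.41 ± 0.141 CPM at 58 h in water (SD, n = 3 each), a log2 change of -0.31 ± 0.11 (edgeR adjusted p = 0.0113).

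The grinder proteases fell sharply. nas-6 was at 1.94, 2.29 and 2.10 CPM in water at 50 h and at 0.0355, 0.076 and 0.117 CPM at 58 h, a log2 change of -4.76 ± 0.42 (edgeR adjusted p = 5.35e-15). nas-7 went from 11.5, 11.4 and 13.4 CPM to 0.709, 1.18 and 1.79 CPM (log2 -3.31 ± 0.15, edgeR adjusted p = 1.20e-26). Neither gene's samples overlapped between ages. Pharynx markers fell over the same step, from 194.9 to 200.5 TPM in sum at 50 h to 88.8 to 90.3 TPM at 58 h in water, with 1 of 10 higher and 8 lower (median -1.13). In ascr#10, 1 was higher and 9 lower (median -1.37). Of all genes, 42.4% fell and 37.5% rose in water, and 43.9% fell and 37% rose in ascr#10. The part of the pharynx markers in the fall of nas-6 and nas-7 was not tested. nas-15 and nas-23, which have no role given here, had the lowest fitted values among the tested astacins, and fell by 6.35 ± 0.30 and 6.28 ± 0.36 on the log2 scale in water. nas-15 stood at 7.37, 8.03 and 6.74 CPM at 50 h and at 0, 0.19 and 0.0779 CPM at 58 h. Without single samples its fitted value ran from -7.53 to -5.75.

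**Figure D2:**
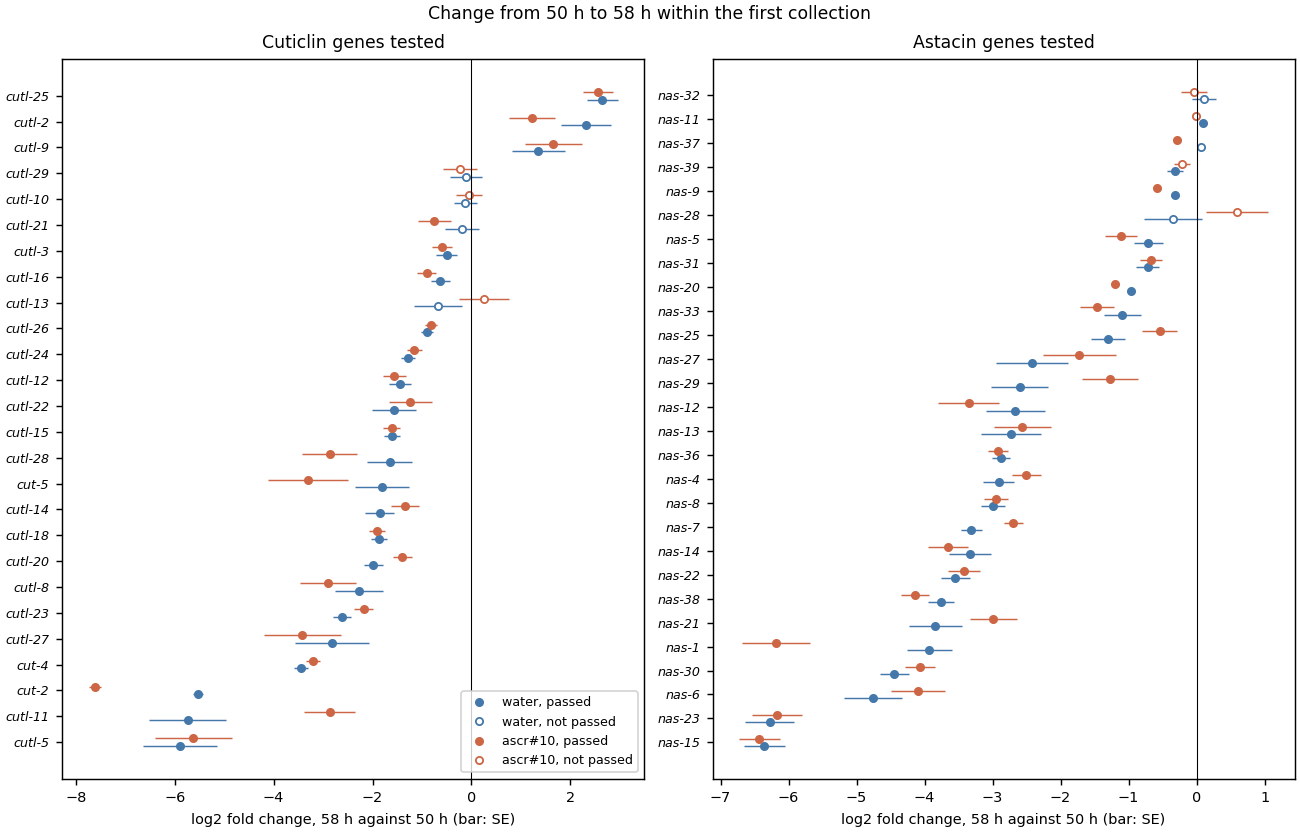
Log2 fold change from 50 h to 58 h within the first collection for each tested cuticlin (left) and astacin (right), in water (blue) and in ascr#10 (orange), with bars of 1 SE. Filled points passed at an adjusted p under 0.05. nas-24 and cutl-4 are left out because each had no counts in 1 of these groups. Most points lie left of 0, with cutl-25, cutl-2 and cutl-9 on the right and nas-32, nas-11 and nas-37 near 0.

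A few astacins stayed abundant at 58 h. nas-9, nas-11, nas-20 and nas-37 together went from 74.7 to 63.0 TPM in water, while the other 33 astacins went from 59.9 to 11.8 TPM. The share of the family's TPM held by these 4 was 55.5% at 50 h and 84.2% at 58 h. nas-11 was at 40.5, 38 and 40.8 CPM at 50 h and at 42.9, 41.2 and 43.5 CPM at 58 h in water. Its log2 change of 0.10 ± 0.043 passed (edgeR adjusted p = 0.0339), but not without any one of 3 samples, where the adjusted p reached 0.21. nas-20 fell 1.96-fold and nas-9 1.25-fold in water (edgeR adjusted p = 7.92e-23 and 5.51e-07). The other astacin that rose in water was nas-24, from 3 counts over the 3 samples to 33, a ratio of 12.4 with an exact 95% interval of 3.88 to 62.9 for counting error (edgeR adjusted p = 0.000358). In water of the second collection at 58 h nas-24 averaged 0.0308 TPM, close to its 0.0289 TPM at 50 h.

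**Figure D3:**
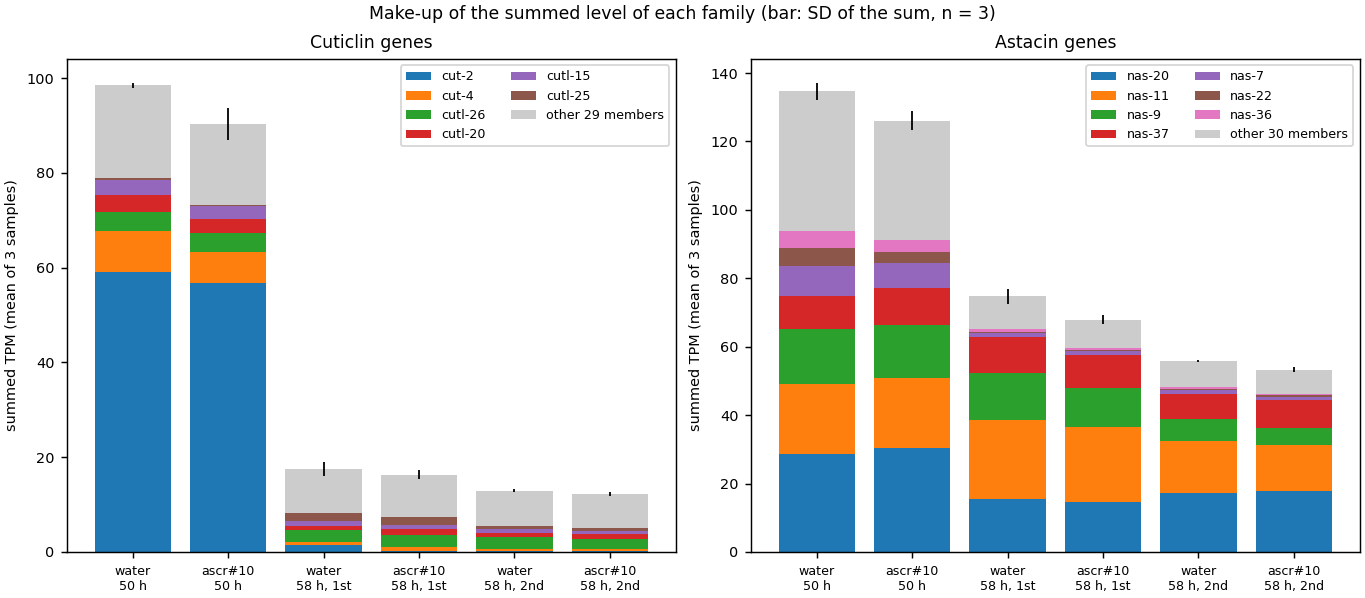
Mean summed TPM of the cuticlins (left) and the astacins (right) in each of the 6 groups of 3 samples, divided by gene, with a bar of 1 SD for the sum. The cut-2 block fills 60.0% of the cuticlin bar in water at 50 h, and the astacin bars at 58 h consist mainly of nas-20, nas-11, nas-9 and nas-37.

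Marker genes of other tissues moved with age in these samples too, where 42.4% of all genes fell and 37.5% rose in water. The sum over 10 hypodermis and seam markers, the tissue that makes the cuticle, was 251 to 255 TPM in water at 50 h and 21.3 to 21.6 TPM at 58 h. Of the 9 tested, 3 rose and 5 fell, while nhr-73 was at 0 in both 58 h groups of the first collection, and on the log2 scale the collagen dpy-13 fell by 7.02 and rol-6 fell by 6.90. These 2 collagens held 231.4 TPM of the sum at 50 h and 1.89 TPM at 58 h, while the other 8 markers together went from 22.1 to 19.6 TPM. Markers of the zygotic embryo summed to 1.37 to 2.19 TPM at 50 h and 19.5 to 20.1 TPM at 58 h, and all 7 tested rose. Their part in the changes of the cuticlins and astacins was not tested.

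Neighbouring genes of the cuticle and the moult gave a mixed picture. Their counts with age in water are to be read against 42.4% of all genes that fell and 37.5% that rose. Of 6 other ZP-domain genes, 4 rose and 2 fell with age in water. fbn-1 rose by 3.13 and noah-1 by 1.49 on the log2 scale, both coding for matrix proteins of the embryo, and dyf-7, which anchors sensory dendrites, fell by 1.78. In water, noah-1 averaged 1.78 TPM at 50 h, and 5.28 and 1.10 TPM at 58 h in the first and second collection. Its mean in the second thus lay below that at 50 h. For fbn-1 these means were 0.149, 1.35 and 0.261 TPM. Of 3 astacins known under other names, hch-1, the hatching protease, rose from a mean of 0.00556 to 1.41 TPM. In water of the second collection at 58 h it averaged 0.121 TPM. dpy-31, a procollagen protease, fell by 0.22 and toh-1 by 1.32. Of 12 genes that carry out the moult, 2 rose and 8 fell (median -1.16), of 8 moult regulators 3 rose and 5 fell (median -0.95), and of 11 genes of collagen maturation and crosslinking 2 rose and 8 fell (median -0.73).

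The comparison of ascr#10 with water at 50 h asks which members the pheromone moved in the younger worms. 0 of 27 cuticlins rose and 3 fell, against 7.70% and 5.20% of all genes, 12.9% in either direction. Of 29 astacins, 2 rose and 3 fell. The median log2 change was -0.15 for the cuticlins and -0.13 for the astacins, against -0.002 for all genes, and 18 of 27 cuticlins and 20 of 29 astacins had a value below 0. cut-2 differed by 0.01 ± 0.051 on the log2 scale (edgeR adjusted p = 0.917), with samples that overlapped.

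The moult proteases nas-36 and nas-37 moved in opposite directions at 50 h. nas-36 was at 8.69, 9.59 and 9.50 CPM in ascr#10, below the water values of 13.4, 12.8 and 13. The groups did not overlap, and it fell by 0.49 ± 0.098 on the log2 scale (edgeR adjusted p = 0.000187). nas-37 was at 27.5, 30.6 and 30.4 CPM in ascr#10, above the water values of 24.9, 24.2 and 24.8, and rose by 0.26 ± 0.051 (edgeR adjusted p = 0.000158). Both passed in every alternative tried. nas-37 overlaps C17G1.5 on the other strand, whose CPM was 4.83 in ascr#10 and 5.39 in water at 50 h. Strand use in counting is not given in the sources used here, so reads of such pairs may not be separable.

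nas-22 and nas-30 fell as well. nas-22 was at 6.03, 6.26 and 6.63 CPM in water and at 4.03, 4.71 and 3.92 CPM in ascr#10, a log2 change of -0.58 ± 0.15 (edgeR adjusted p = 0.00354). nas-30 was at 9.09, 8.21 and 8.14 CPM in water and at 5.79, 5.55 and 6.61 CPM in ascr#10 (log2 -0.50 ± 0.13, edgeR adjusted p = 0.00418). In both genes every ascr#10 sample lay below every water sample. Each call was lost in 1 of 10 alternatives, at an adjusted p of 0.116 for nas-22 and 0.0861 for nas-30. nas-20 rose 1.12-fold, from 37, 33.5 and 36.1 to 40.7, 38.7 and 39.4 CPM (edgeR adjusted p = 0.0191). That call was lost without water replicate 2 (adjusted p = 0.186) or ascr#10 replicate 1 (0.0947), and in 3 of 10 alternatives, at up to 0.308.

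nas-20, nas-21 and nas-22 lie side by side on chromosome V (WBcel235, nas-20 from 11470925 to 11472309 on the minus strand, nas-22 from 11474699 to 11478007 on the plus strand), with 254 and 799 bases between them. In these neighbours ascr#10 went with a higher level of nas-20 and a lower level of nas-22. nas-21, between them, was at 1.80, 1.65 and 1.51 CPM in water and 1.28, 1.52 and 1.75 CPM in ascr#10, with overlapping groups. A second cluster on the same chromosome holds nas-16, nas-18, nas-17 and nas-19. They were left untested, and counted at most 8 reads in any sample.

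The cuticlins that fell at 50 h were cutl-10, cutl-23 and cut-4. cutl-10 was at 1.23, 1.59 and 1.29 CPM in water and at 0.827, 0.637 and 0.94 CPM in ascr#10 (log2 -0.78 ± 0.24, edgeR adjusted p = 0.0209). cut-4 was at 16.2, 17.7 and 15.3 CPM in water and at 13.8, 11.3 and 14.5 CPM in ascr#10 (log2 -0.32 ± 0.094, edgeR adjusted p = 0.0167). The groups did not overlap in either gene. The cut-4 call was lost in 3 of 10 alternatives, at adjusted p up to 0.198. cutl-23 fell by 0.41 ± 0.14 (edgeR adjusted p = 0.0411) from 4.41, 5.68 and 5.05 to 3.86, 3.75 and 3.83 CPM. Its call was lost in 6 of 10 alternatives, the replicate block among them, at adjusted p up to 0.0653, and without any one of 5 of the 6 samples, at up to 0.263.

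These cuticlin calls rested on single samples. Without water replicate 2, or without ascr#10 replicate 2, 0 of the 3 cuticlins passed. Without ascr#10 replicate 2 the adjusted p was 0.12 for cutl-10, 0.117 for cutl-23 and 0.199 for cut-4, and with all samples the collagen dpy-13 was lower too, by 0.30 on the log2 scale. The summed hypodermis and seam markers were 251 to 255 TPM in water and 199 to 205 TPM in ascr#10 at 50 h, and 0 of 9 tested rose and 1 fell. dpy-13 and rol-6 together were at 231.4 TPM in water and 180.3 TPM in ascr#10, and the other 8 markers at 22.13 and 21.95 TPM. Their part in the cuticlin and astacin differences was not tested.

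**Figure D4:**
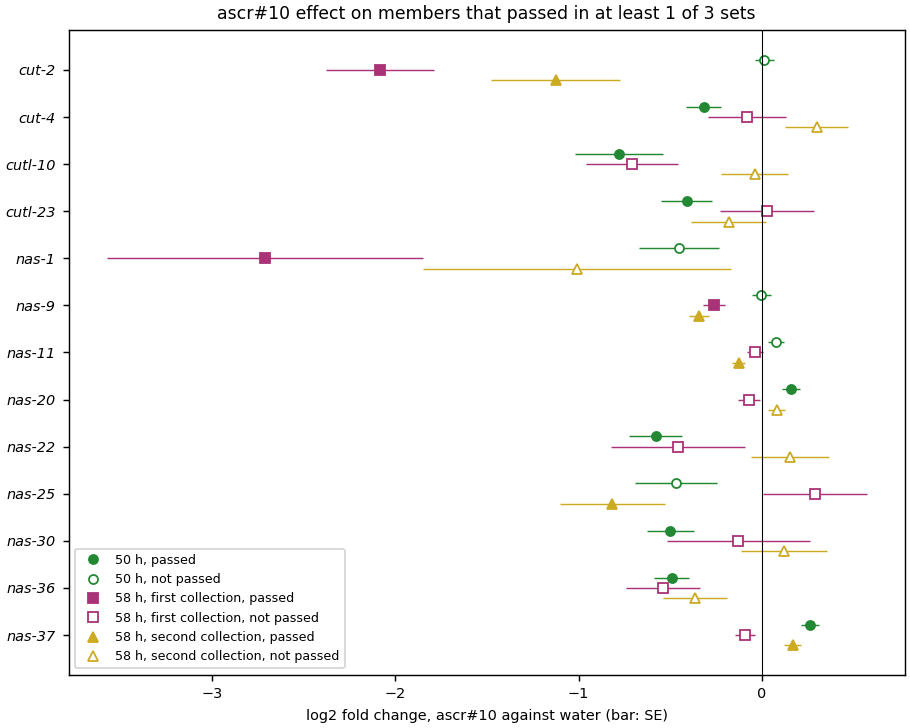
Log2 fold change of ascr#10 against water at 50 h (circles), at 58 h in the first collection (squares) and at 58 h in the second (triangles), with bars of 1 SE, for the members that passed in at least 1 of the 3 sets. Filled symbols passed at an adjusted p under 0.05, and nas-24 is left out because it had no counts in 1 group. cut-2 lies near 0 at 50 h and left of 0 in both 58 h sets, and nas-9 is lower in both 58 h sets.

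At 58 h in the first collection, 1 cuticlin and 3 astacins fell and 0 of either rose, against 5.22% of all genes that fell and 2.84% that rose. In the second collection 1 cuticlin fell, 3 astacins fell and 1 astacin rose, against 16.4% of all genes that fell and 15.3% that rose. The family medians lay between -0.08 and -0.04 on the log2 scale in these sets. The second collection had more reads, and 31.7% of all genes passed there in either direction, against 8.05% in the first. cut-2 and nas-9 fell in both collections, 1 member of each family. How many of all genes passed the same way in both was not counted.

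cut-2 was at 1.42, 1.03 and 1.01 CPM in water and at 0.312, 0.268 and 0.226 CPM in ascr#10 in the first collection. The groups did not overlap. It fell by 2.08 ± 0.29 on the log2 scale, a 4.23-fold fall (edgeR adjusted p = 4.19e-07), and passed in every alternative tried. In the second collection it was at 0.258, 0.241 and 0.264 CPM in water and at 0.218, 0.0379 and 0.0899 CPM in ascr#10. The fall there was 1.13 ± 0.35 (edgeR adjusted p = 0.0113), and it was lost without ascr#10 replicate 2 (adjusted p = 0.113) or replicate 3 (0.0733). At 58 h cut-2 was thus of low level. The 0.0379 CPM of ascr#10 replicate 2 lies below the 0.0568 CPM that 3 counts give in that sample. In the ascr#10 samples of the first collection 3 counts give 0.0936 to 0.115 CPM.

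The difference between the cut-2 effects at 58 h and 50 h was itself -2.10 ± 0.30 on the log2 scale (edgeR adjusted p = 8.52e-07), while that between the collections did not pass (0.96 ± 0.51, edgeR adjusted p = 0.25). The latter passed with limma on log2(TPM + 1) (0.69, adjusted p = 0.000571) and on log2(TPM + 0.1) (1.08, adjusted p = 0.0366). The water samples of the second collection were already 2.18 lower on the log2 scale than those of the first (edgeR adjusted p = 2.49e-11). In the first collection 2 collagens of the hypodermis list went with cut-2, where rol-6 fell by 2.83 and dpy-13 by 1.46 between water and ascr#10. The rol-6 value rests on 15 counts in water and 2 in ascr#10. dpy-7, another collagen of the list, had 21 and 10 counts. The list summed to 21.3 to 21.6 TPM in water and 17.9 to 19.9 TPM in ascr#10 there, and of 9 tested 0 rose and 2 fell. The 8 markers other than rol-6 and dpy-13, with dpy-7 among them, summed to 19.6 and 18.5 TPM. In the second collection, where cut-2 fell too, the log2 values were 0.20 for dpy-13 and 0.29 for rol-6, and neither passed. The part of these genes in the cut-2 result was not tested.

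nas-9 (WBGene00003528, chromosome V, 4836027 to 4840013) gave the steadiest difference at 58 h. It was at 23.7, 24.9 and 24.2 CPM in water and 20.9, 20.2 and 19.5 CPM in ascr#10 in the first collection, and at 13.8, 14.2 and 13.5 CPM and 10.6, 10.9 and 11.2 CPM in the second. No ascr#10 sample reached a water sample of its collection. It fell by 0.26 ± 0.058 and 0.34 ± 0.055 on the log2 scale (edgeR adjusted p = 0.00129 and 1.81e-06), and passed in every alternative tried in both collections. At 50 h its groups overlapped, at 28.1, 32.0 and 30.6 CPM in water and 29.9, 29.9 and 30.9 CPM in ascr#10.

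nas-37 differed between the sets. In the second collection it was at 21.3, 21.4 and 21.2 CPM in water and 24, 23.3 and 24.5 CPM in ascr#10, and it rose by 0.17 ± 0.045 on the log2 scale (edgeR adjusted p = 0.00322). That call was lost with limma on log2(TPM + 1) (adjusted p = 0.073) and on log2(TPM + 0.1) (0.0645), and with 1 effect common to both collections (0.05 on the log2 scale, edgeR adjusted p = 0.372). In the first collection the groups were at 25.4, 26.9 and 24.8 CPM and 23.5, 24.4 and 24.4 CPM. There the log2 difference was -0.09 ± 0.054 (edgeR adjusted p = 0.345), although the samples did not overlap. The effect differed between collections by 0.26 ± 0.070 (edgeR adjusted p = 0.00799) and between ages in the first collection by -0.36 ± 0.074 (edgeR adjusted p = 0.000855).

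**Figure D5:**
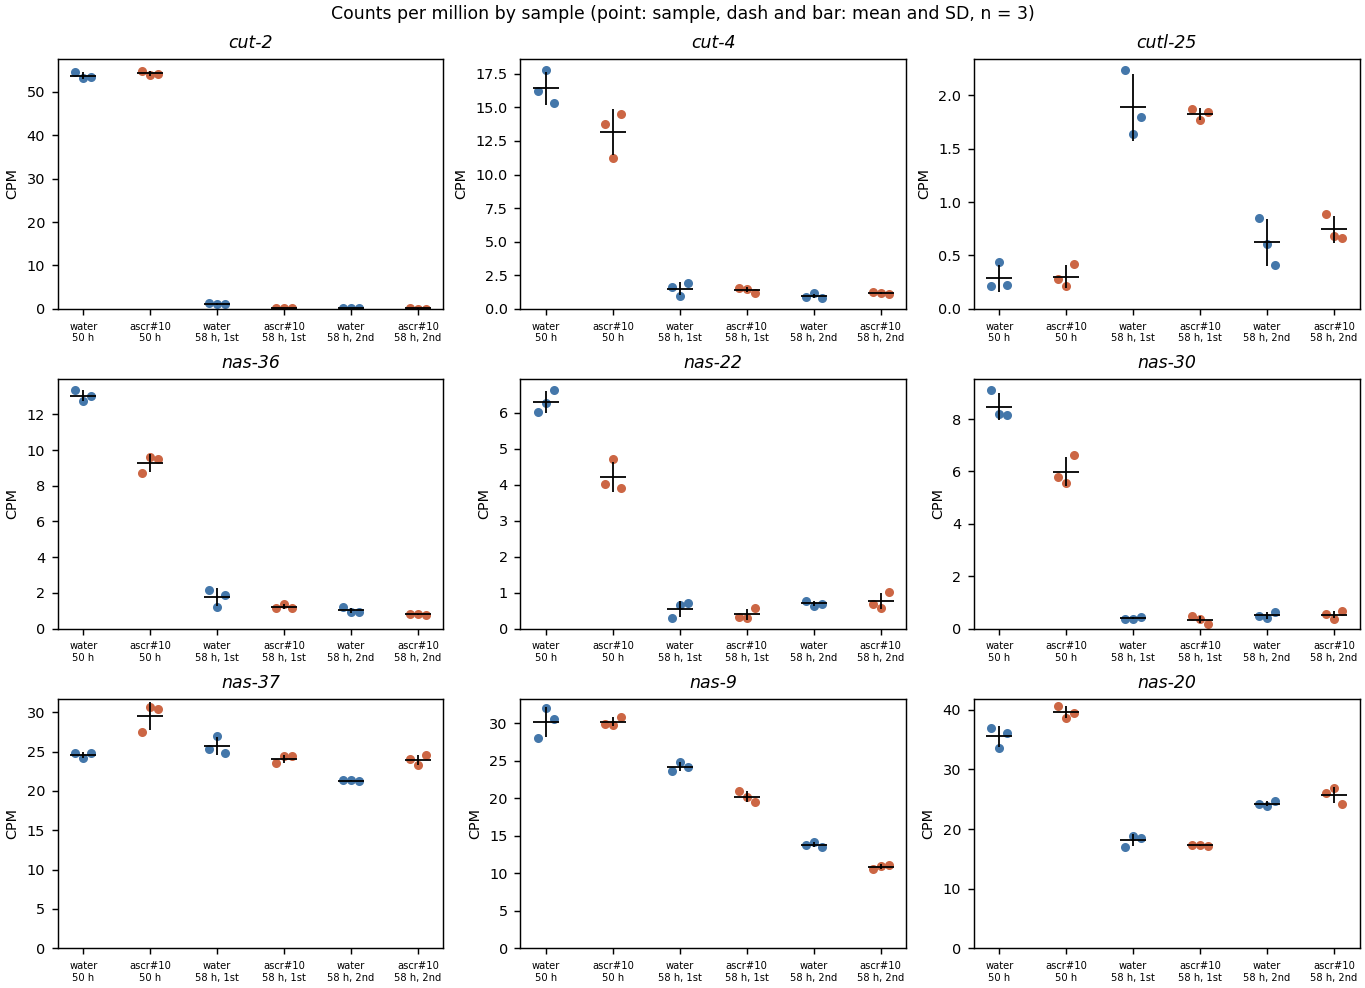
CPM of 9 members in every sample, one point per sample, with a dash at the mean and a bar of 1 SD (n = 3), for water (blue) and ascr#10 (orange). At 50 h the ascr#10 points of nas-36, nas-22 and nas-30 lie below the water points and those of nas-37 above, and nas-9 is lower in ascr#10 in both 58 h sets.

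The other members that passed at 58 h, nas-24, nas-1, nas-25 and nas-11, were also of low level or small change. nas-24 had 33 counts over the 3 water samples of the first collection and 0 in ascr#10, so it was at least 11.6-fold lower there (edgeR adjusted p = 0.00054). In those water samples it stood at 0.709, 0.114 and 0.39 CPM, and the bound leaves out this spread. In the second collection it averaged 0.0308 TPM in water and 0.0211 TPM in ascr#10, against 0.362 TPM in water of the first. Its fall here and its rise with age in water rest on the same water samples of 58 h. At 50 h the direction of its values was the other way, with 3 counts in water and 19 in ascr#10, a ratio of 6.47 with an exact 95% interval of 1.91 to 34.1 for counting error (edgeR adjusted p = 0.0741).

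nas-1 had 20 counts in water and 3 in ascr#10 in the first collection, a ratio of 7.05 with an interval of 2.09 to 37 (edgeR adjusted p = 0.0424). That call was lost without any of 5 of the 6 samples, at adjusted p up to 0.187, and in 2 of 9 alternatives, at up to 0.136. nas-25 fell in the second collection from 0.621, 0.582 and 0.743 CPM to 0.181, 0.436 and 0.465 CPM (log2 -0.82 ± 0.29, edgeR adjusted p = 0.0242). Its call was lost without water replicate 3 (0.0964) or ascr#10 replicate 1 (0.184), and in 3 of 10 alternatives, at up to 0.4635. nas-11 fell 1.09-fold in that collection, from 33.3, 33.1 and 35.4 to 30.0, 31.1 and 31.9 CPM (edgeR adjusted p = 0.00785). Without water replicate 3 it was not called (0.0882).

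nas-36 was lower in ascr#10 in all 3 sets but passed at 50 h alone. At 58 h its log2 values were -0.54 ± 0.20 in the first collection (edgeR adjusted p = 0.0888) and -0.37 ± 0.17 in the second (edgeR adjusted p = 0.103). A model with 1 effect for both collections gave -0.44 (edgeR adjusted p = 0.0138). The test of a difference in its effect between ages gave -0.05 ± 0.22 on the log2 scale and did not pass (edgeR adjusted p = 0.958). Pharynx markers in the second collection summed to 65.0 to 68.3 TPM in water and 40.8 to 42.2 TPM in ascr#10, where 0 of 10 rose and 7 fell. The grinder proteases nas-6 and nas-7 had log2 values of -0.23 ± 0.57 and 0.09 ± 0.14 in the same samples (edgeR adjusted p = 0.80 and 0.687).

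Across members, the ascr#10 effect depended on age in 1 cuticlin and 3 astacins, all with a lower value at 58 h, against 3.80% of all genes with a lower and 0.931% with a higher value, 4.74% in all. These were cut-2, nas-24, nas-37 and nas-9. The nas-9 call was lost in 6 of 9 alternatives, and without any one of 9 of 12 samples. It depended on collection in 0 cuticlins (edgeR, with 4 at an unadjusted p under 0.05) and 2 astacins, nas-24 and nas-37, both with a higher value in the second collection. Of all genes 4.34% had a higher and 6.80% a lower value there, 11.1% in all. With limma on log2(TPM + 1) or on log2(TPM + 0.1) the cuticlin count was 1.

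Exposure also moved some of the other cuticle and moult genes, to be read against 12.9%, 8.05% and 31.7% of all genes called in either direction at 50 h and in the first and second 58 h sets. Of the 6 other ZP-domain genes, 0 rose and 1 fell at 50 h, 0 rose and 1 fell at 58 h in the first collection, and 2 rose and 0 fell in the second. fbn-1 fell by 0.82 on the log2 scale at 50 h and rose by 0.34 in the second collection. Of the 12 genes that carry out the moult, the counts of rises and falls in these 3 sets were 1 and 0, 0 and 1, and 1 and 2. For the 8 moult regulators they were 0 and 1, 0 and 0, and 2 and 1. For the 11 genes of collagen maturation they were 1 and 4, 1 and 0, and 2 and 2. The procollagen protease dpy-31 rose by 0.18 at 50 h and by 0.18 at 58 h in the first collection, and fell by 0.16 in the second.

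The untested members were near the limit of detection. The 8 cuticlins had from 0 to 21 counts in any sample and the 8 astacins from 0 to 23. nas-17 and nas-19 had 14 and 18 counts over the 3 water samples of 58 h in the first collection and 0 in ascr#10, so they were at least 4.93-fold and 6.34-fold lower. Tested with no filter on low counts, both fell (edgeR adjusted p = 0.0175 and 0.00601). In the same fit both rose with age in water (edgeR adjusted p = 0.00171 and 0.0101). The falls and the rises share the water samples of 58 h in the first collection, so they are not separate results. Those samples averaged 0.132 TPM for nas-17 and 0.202 TPM for nas-19, and water at 58 h in the second collection 0.0065 and 0.0035 TPM. nas-17 went from 0 to 14 counts, at least 5.24-fold higher, and nas-19 from 2 to 18 counts, a ratio of 10.1 with an exact 95% interval of 2.42 to 89.8. cut-1 rose too, from 3 to 15 counts, a ratio of 5.61 with an interval of 1.59 to 30.3 (edgeR adjusted p = 0.0226). cutl-19 fell with age in water, and cut-6 and cutl-6 fell in ascr#10. nas-40, annotated as a pseudogene in the Ensembl release used, had 5 counts in all.

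In the genome the members were spread over all 6 chromosomes. Astacins were most frequent on chromosome V, with 14 of 37, and cuticlins on chromosome II, with 9 of 35. All 72 identifiers were found in the annotation, 71 as protein-coding genes. Of these, 21 overlap a coding gene on the opposite strand and 4 one on the same strand, so reads may be shared with a neighbour. rev-3, which overlaps cutl-23, was at 24.4 CPM in water and 23 CPM in ascr#10 at 50 h, above cutl-23 itself at 5.04 and 3.81 CPM.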

How the data were processed

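The deposited estimated counts per gene were made by the authors with salmon and summed over transcripts, per the names of the deposited files; its version, the build, the annotation and the use of strand are not stated there. Of the values 95.2% are whole, and all were rounded. The deposited length-scaled estimated counts and TPM values served alternatives, and TPM also levels between genes. Libraries were directional, per the labels' protocols.

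All 18 samples entered 1 edgeR 4.0.16 quasi-likelihood fit (R 4.3.3) of 6 group means, with TMM scaling, filterByExpr at a minimum count of 10 and Benjamini-Hochberg adjustment over 16006 genes. The biological coefficient of variation was 2.86%. Alternatives used DESeq2 1.42.0, limma 3.58.1 and other filters, scalings and samples. The fit was run on simulated counts with the same spread for all genes and changes placed in the ascr#10 group of 50 h. That run checked the code and does not show how well the test fits the real data. Coordinates come from Ensembl release 115 of WBcel235. Members and gene lists were chosen with earlier results of these data known. Named were members with a known role, up to 4 of the largest calls per comparison and family, and other members that passed. Of the marker lists, elt-5 and toh-2 were not found by symbol. Tables at transcript level were not used.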

Additional observations from a re-analysis of the deposited data

Results flagged for a closer look

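For 4 members the ascr#10 effect differed between 58 h and 50 h in the first collection by the interaction test (edgeR). The difference of log2 effects was -2.10 for cut-2 (adjusted p = 8.52e-07), -0.36 for nas-37 (adjusted p = 0.000855) and -0.26 for nas-9 (adjusted p = 0.0405). For nas-24 the fitted difference was -9.62 (adjusted p = 0.000256), which depends on how 0 counts in the ascr#10 samples of 58 h are treated and gives no bound. For 2 members the effect at 58 h differed between collections. The difference was 0.26 for nas-37 (adjusted p = 0.00799) and a fitted 6.57 for nas-24 (adjusted p = 0.0476), with the same limit on the latter. Both nas-24 differences use the 58 h samples of the first collection, so they are not separate results. The nas-9 difference did not pass without any one of 9 of 12 samples, at an adjusted p of up to 0.159. It also did not pass in 6 of 9 alternatives, at up to 0.117. The nas-24 difference between collections did not pass without any one of 9 of 12 samples, at up to 0.191.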

How the results depend on the processing

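No member that passed reversed its direction under any alternative. Of 2475 values of single members, 2335 kept their side of the threshold, 126 lost it and 14 gained it. At 50 h the 5 astacin calls became 8 with limma on log2(TPM + 1) and 2 on log2(TPM + 0.1), and the 3 cuticlin calls became 1 with length-scaled counts, with limma on log2(TPM + 0.1) and with one 58 h effect common to both collections; leaving out 1 sample gave 0 to 3. At 58 h in the first collection the 3 astacin calls became 5 with no filter, 5 with the common effect and 1 with only the compared groups, and the 1 cuticlin call became 2 with limma at either pseudocount and 1 to 2 without single samples. In the second collection the 4 astacin calls became 2 with limma at either pseudocount and 2 to 5 without single samples, and the 1 cuticlin call became 0 with limma on log2(TPM + 1) or only the compared groups and 0 to 2 without single samples. With age, a minimum count of 50 left 12 cuticlins tested and 12 called in water and in ascr#10, against 23 and 24, because fewer genes were tested. Age dependence gave 1 astacin with DESeq2 or that filter, against 3. Collection dependence gave 1 astacin, against 2, with DESeq2, that filter, length-scaled counts, limma on log2(TPM + 1) or only the compared groups, 1 to 2 without single samples, and 3 with no filter or the replicate block, the added one with a lower value; it gave 1 cuticlin with limma at either pseudocount, against 0. Apart from the filter, the cause was not tested. Replicate numbers recur across groups, but none of 21 same-numbered pairs correlated above 0.1 (-0.0456 to 0.0349), and the replicate block ended the call of cutl-23 at 50 h (adjusted p = 0.0568). In the first collection 1 CPM stands for 25.7 to 34.5 counts, so members below it rest on fewer reads than that per sample.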
